A study of Rattus norvegicus with 12 samples.

Results

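The 10 genes described here encode core parts of autophagy: the kinase Ulk1, the lipid kinase subunits Becn1, Pik3c3 and Atg14, the conjugation factors Atg5, Atg7 and Atg12, the membrane tags Map1lc3b and Gabarapl2, and the cargo receptor Sqstm1. They were matched by symbol in the platform annotation, where a probe set had to name exactly 1 gene, and the probe set with the highest mean stood for each gene. All 10 were measured, by 12 probe sets, among 14506 named genes and 29214 probe sets on the arrays. Affymetrix arrays for the rat (Gene 1.0 ST) read the RNA of whole ganglionic eminences at embryonic day 14, the ventral forebrain tissue from which striatal neurons and many cortical interneurons arise, with medial and lateral eminences dissected and the meninges removed. Of 12 rat embryos, 6 carried no transgene (wild type) and 6 were homozygous for BACHD, a bacterial artificial chromosome that encodes the whole human huntingtin protein and has 96 CAG repeats. The homozygous embryos also kept their own rat Htt gene. All embryos came from 3 time-bred dams dissected on 1 day, each array held RNA of 1 embryo, and the labels gave neither dam nor sex, nor the promoter or the line of the transgene. The comparison asked which transcripts differ early in transgenic embryos.

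Autophagy encloses cytoplasm in a growing double membrane that closes into an autophagosome and fuses with lysosomes, where the contents are degraded. The Ulk1 kinase starts the process, the Becn1, Pik3c3 and Atg14 complex makes the lipid phosphatidylinositol 3-phosphate at the site, and Atg7, Atg12 and Atg5 belong to ubiquitin-like conjugation systems that attach Map1lc3b and Gabarapl2 to the membrane. Sqstm1, also called p62, binds ubiquitinated cargo and these tags, and is itself degraded with the cargo. Neurons depend on basal autophagy to clear aggregated proteins. Huntingtin is known to act as a scaffold that binds Sqstm1 and Ulk1, and its mutant form is itself cleared in part by autophagy. Much of this pathway is controlled at the protein level, which these arrays did not measure.

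Array medians lay between 7.67 and 7.71 for wild-type and between 7.69 and 7.76 for homozygous embryos (log2), and r between any pair of arrays was 0.994 to 0.998. Rat Htt, the check of the genotype labels, averaged 9.97 ± 0.114 among wild-type and 10.26 ± 0.0967 among homozygous embryos (SD, n = 6 each). Whether its probes bind the human transcript was not analysed here. All 9 measured markers of the subpallial eminences, such as Dlx1, Gad2 and Ebf1, lay between the 83.2 and 95.8 percentile of all probe sets by mean intensity. Of 7 choroid plexus and roof plate markers the highest stood at the 50.7 percentile and the median at 30.0. In bulk tissue, fewer cells of a type and less RNA per cell cannot be told apart. All intensities below are log2 values, and since probe sets bind with unequal strength, levels are compared between embryos and never between genes. Means of the 10 genes lay between the 66.0 and 97.2 percentile of all probe sets, so each gave a bright signal.

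None of the 10 genes passed an adjusted p of 0.05 in limma, the threshold used for calls, where 0.424% of all probe sets and 0.96% of the genes as bright passed. At an unadjusted p under 0.05 there were 5, of which Becn1, Pik3c3 and Atg14 were lower and Gabarapl2 and Sqstm1 higher in homozygous embryos. The background at this looser threshold was wide. It took in 15.0% of all probe sets (10.2% higher, 4.81% lower) and 15.1% of all named genes, and 21.1% of the 5937 genes whose mean lay within the range of the 10, with 10.3% higher and 10.8% lower. The genes were chosen with earlier results of these data known, so their count is a description. Their median difference was -0.0004, beside 0.02 over all named genes, as 5 differences lay above 0 and 5 below. The count of 5 became 3 without homozygous 3 and also without homozygous 4, each time Becn1, Sqstm1 and Gabarapl2. With arrays centred on their medians it was again 5, but 1 higher and 4 lower, as Atg12 entered and Sqstm1 left, and it was 6 after quantile normalization or cyclic loess, which added Atg5. Without wild type 1 and 2 together, left out as arrays that stood apart in an earlier analysis of these data and with the lowest median correlations with other arrays (0.9960 and 0.9951), it stayed at 5 but held Becn1, Atg5, Sqstm1, Map1lc3b and Gabarapl2, and Becn1 and Gabarapl2 passed the adjusted threshold, as did 1.99% of all probe sets.

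**Figure D1:**
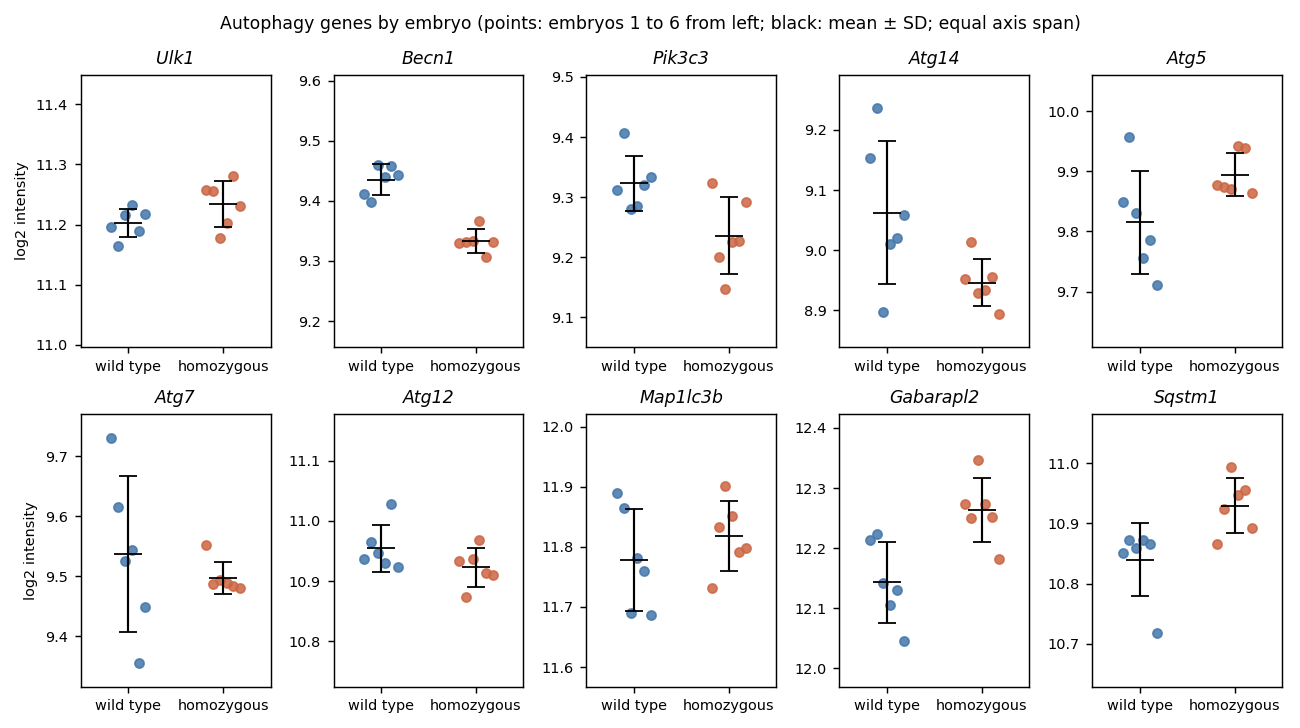
Log2 intensity of the 10 autophagy genes in each embryo, with wild type in blue, homozygous in orange, points for embryos 1 to 6 from left to right, and black bars for the mean ± SD of 6 embryos. Every panel spans the same log2 range; all 6 homozygous values of Becn1, up to 9.37, sit below all 6 wild-type values, from 9.40, and the groups overlap for each of the other 9 genes.

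Becn1 encodes Beclin 1, the scaffold of the lipid kinase complex and a partner of Bcl2. Its log2 intensity was 9.40 at the lowest, 9.44 at the median and 9.46 at the highest in wild type, and 9.31, 9.33 and 9.37 in homozygous embryos. The groups did not overlap, with all homozygous values lower, which held for 0.698% of all probe sets and 1.94% of the genes as bright. The means were 9.44 ± 0.0252 and 9.33 ± 0.0195 (SD, n = 6 each), a difference of -0.10 ± 0.0263 (SE), or -6.82% with a 95% confidence interval from -10.4% to -3.11%. A 2-sided exact permutation test gave p = 0.00216, its lowest possible value with 6 embryos a group. Every probe set whose groups do not overlap gets this value, so the test adds nothing to that. Such groups were found for 0.698% of all probe sets with lower and 1.16% with higher homozygous values. Limma's adjusted p for Becn1 was 0.113. The difference stayed between -0.14 and -0.10 in 22 other settings and its adjusted p between 0.0338 and 0.214. It passed in 4 of them: with arrays centred on their medians (0.0338, where 1.03% of all probe sets passed), without variance moderation (0.0399, 0.253%), with array weights (0.0451, 1.42%) and without wild type 1 and 2 (0.0418). Among the 10 genes Becn1 had the tightest homozygous group, since 4 of its 6 values round to 9.33.

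Pik3c3 encodes the catalytic subunit, also called Vps34, and Atg14 the subunit that directs the complex to sites of autophagosome formation. Pik3c3 read 9.28 at the lowest, 9.32 at the median and 9.41 at the highest in wild type, and 9.15, 9.23 and 9.32 in homozygous embryos. Of the homozygous embryos 4 lay below every wild-type value, and homozygous 1 and 6 lay inside the wild-type range. The difference was -0.09 ± 0.0362 (SE; adjusted p = 0.285 in limma), or -5.84% with an interval from -10.8% to -0.642%. Atg14 read 8.90, 9.04 and 9.24 in wild type and 8.89, 8.94 and 9.01 in homozygous embryos. All 6 homozygous values lay below the wild-type mean of 9.06, but wild type 3 and 4, at 8.90 and 9.01, lay within the homozygous range. Its difference of -0.12 ± 0.0498 (SE; adjusted p = 0.296 in limma) rested in part on wild type 1 and 2, at 9.15 and 9.24. Without both it was -0.05, and without either alone -0.10 and -0.08, with an unadjusted p above 0.05 in each case. Pik3c3 stood at -0.07 without wild type 1 and 2, where its unadjusted p was 0.0878 by limma. Its unadjusted p was also above 0.05 without wild type 2 or homozygous 2, 3, 4 or 5. That of Atg14 was above 0.05 without homozygous 3, 4 or 6 and with array weights as well.

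Of the other measured genes of this complex, none reached an unadjusted p under 0.05. Uvrag, which replaces Atg14 in an alternative form of the complex, differed by -0.05 ± 0.0452, and Nrbf2, a binding partner of Atg14, by -0.02 ± 0.04997 (SE). The value of Nrbf2 is that of the brightest of its 3 probe sets, and the others are not given here. Uvrag and Nrbf2 turned above 0 without wild type 1 and 2, at 0.01 and 0.05. The remaining measured gene, Pik3r4, lay above 0, at 0.02 ± 0.0538 (SE), but below 0 without wild type 1 and 2. The complex as listed had 6 measured genes of 8, with 3 lower and none higher at the looser threshold and a median of -0.07. The lower genes were Becn1, Pik3c3 and Atg14 themselves, and the other 3 had a median of -0.02. Of all named genes 5.93% were lower at this threshold, and of those as bright as the 10, 10.8%. Without wild type 1 and 2 together 1 of the 6 was lower, Becn1.

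Ulk1, the kinase that starts autophagy under control of mTOR and AMPK, had closely grouped values. It read 11.16 at the lowest, 11.21 at the median and 11.23 at the highest in wild type and 11.18, 11.24 and 11.28 in homozygous embryos. Of the homozygous embryos 3 lay above the wild-type range and the other three inside it. The difference of 0.03 ± 0.0240 (SE; adjusted p = 0.546 in limma) had the smallest SE of the 10, and its interval ran from -1.39% to 5.91%. With arrays centred on their medians it was -0.01, and without wild type 1 and 2 it was 0.02. Among its partners Rb1cc1, also called Fip200 and the scaffold of the kinase complex, differed by -0.15 ± 0.0415 (SE; adjusted p = 0.120 in limma), with means of 10.27 ± 0.0739 for wild-type and 10.12 ± 0.0730 for homozygous embryos (SD, n = 6 each). It passed with arrays centred on their medians (0.0418) and without wild type 3 (0.0496), but its second probe set read 0.00 ± 0.0532, so its probe sets disagree. Ulk2, a relative of Ulk1, differed by -0.04 ± 0.0282.

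The conjugation factors had differences of both signs. Atg5, which is joined to Atg12 to form the enzyme that lipidates the Atg8 tags, read 9.71, 9.81 and 9.96 at the lowest, median and highest in wild type and 9.86, 9.88 and 9.94 in homozygous embryos. All 6 homozygous values lay above the wild-type mean of 9.82, yet inside the wild-type range because wild type 2 was the highest of the 12. The difference was 0.08 ± 0.0391 (SE; adjusted p = 0.355 in limma), with an interval from -0.292% to 11.98%, and it stood at 0.12 without wild type 1 and 2 and at 0.04 with arrays centred on their medians. Atg12, the ubiquitin-like partner of Atg5, read 10.92, 10.94 and 11.03 in wild type and 10.87, 10.92 and 10.97 in homozygous embryos. Its difference of -0.03 ± 0.0258 (SE; adjusted p = 0.562) had an interval from -5.88% to 1.60%. It was -0.02 without wild type 5 and -0.07 with centred arrays, where its unadjusted p was under 0.05. Atg7, the activating enzyme of both conjugation systems, read 9.36, 9.53 and 9.73 in wild type and 9.48, 9.49 and 9.55 in homozygous embryos. Its wild-type embryos were the most spread of any of the 10 genes, with an SD of 0.130 against 0.0268 in homozygous embryos. The difference of -0.04 ± 0.0512 (SE; adjusted p = 0.732) was 0.03 without wild type 1 and 2, -0.0002 without wild type 1 alone and -0.08 with centred arrays. Of the other conjugation genes, Atg4b, a protease that primes the Atg8 tags, differed by 0.07 ± 0.0319 (adjusted p = 0.314) and Atg10, which joins Atg12 to Atg5, by -0.17 ± 0.0962 (adjusted p = 0.413 in limma).

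The Atg8 family tags the autophagosome membrane and draws in cargo receptors. Gabarapl2 read 12.05 at the lowest, 12.14 at the median and 12.22 at the highest in wild type and 12.18, 12.26 and 12.35 in homozygous embryos. Of the homozygous embryos 5 lay above every wild-type value and homozygous 6 lay below wild type 1 and 2. The means were 12.14 ± 0.0672 and 12.26 ± 0.0534 (SD, n = 6 each), a difference of 0.12 ± 0.0335 (SE), or 8.62% with an interval from 3.36% to 14.2% (adjusted p = 0.131 in limma). Its second probe set gave 0.08 ± 0.0295. It passed in 2 of 22 other settings, with array weights (0.0362) and without wild type 1 and 2 (0.0227), and ranged from 0.08 to 0.16 over all of them, the lowest with arrays centred on their medians.

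Map1lc3b, the LC3B protein most used as a marker of autophagosomes, read 11.69, 11.77 and 11.89 in wild type and 11.73, 11.81 and 11.90 in homozygous embryos. The groups overlapped over nearly their whole ranges. Its 2 probe sets had opposite signs, 0.04 ± 0.0392 for the brighter and -0.04 ± 0.0355 for the dimmer (SE; adjusted p = 0.643 and 0.630 in limma), so no direction is given for it. The other three members of the family lay above 0. Gabarapl1 differed by 0.08 ± 0.0255 (adjusted p = 0.163), with 5 homozygous embryos above the wild-type range, Gabarap by 0.09 ± 0.0311 (adjusted p = 0.210) and Map1lc3a by 0.03 ± 0.0312 (adjusted p = 0.618). By brightest probe set all 5 genes of the family were above 0, with a median of 0.08, where 61.4% of all named genes and 50.1% of those as bright as the 10 lay above 0 (64.8% of all probe sets). With arrays centred on their medians the family's median was 0.04, with Map1lc3a at -0.0042, Map1lc3b at 0.0017, Gabarap at 0.05 and Gabarapl1 at 0.04, and only Gabarapl2 of the 5 kept an unadjusted p under 0.05. None passed the adjusted threshold except without wild type 1 and 2, where Gabarapl2 and Gabarap did, and with array weights, where Gabarapl2 did. Members of this family are similar in sequence, and whether probes are shared was not analysed here.

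Sqstm1 read 10.72 at the lowest, 10.86 at the median and 10.87 at the highest in wild type and 10.87, 10.94 and 10.99 in homozygous embryos. Of the homozygous embryos 5 lay above every wild-type value, and homozygous 1 fell inside the wild-type range. Wild type 6, at 10.72, lay apart from the other wild-type embryos, which stood between 10.85 and 10.87. The difference was 0.09 ± 0.0325 (SE; adjusted p = 0.227 in limma), or 6.43% with an interval from 1.41% to 11.7%, and it was 0.07 without wild type 6 and 0.05 with arrays centred on their medians, where its unadjusted p was 0.133 by limma. The other 8 measured cargo receptors gave no value at an unadjusted p under 0.05, though 3 were lower with centred arrays and 3 without wild type 1 and 2. The share of all genes at this threshold under those 2 settings is not given here, so the counts are not set against it. Of these 8 receptors, the smallest p belonged to the mitochondrial receptors Bnip3, at -0.05 ± 0.0382, and Fundc1, at -0.05 ± 0.0375. The value of Bnip3 is that of the brighter of its 2 probe sets, and the other is not given here.

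**Figure D2:**
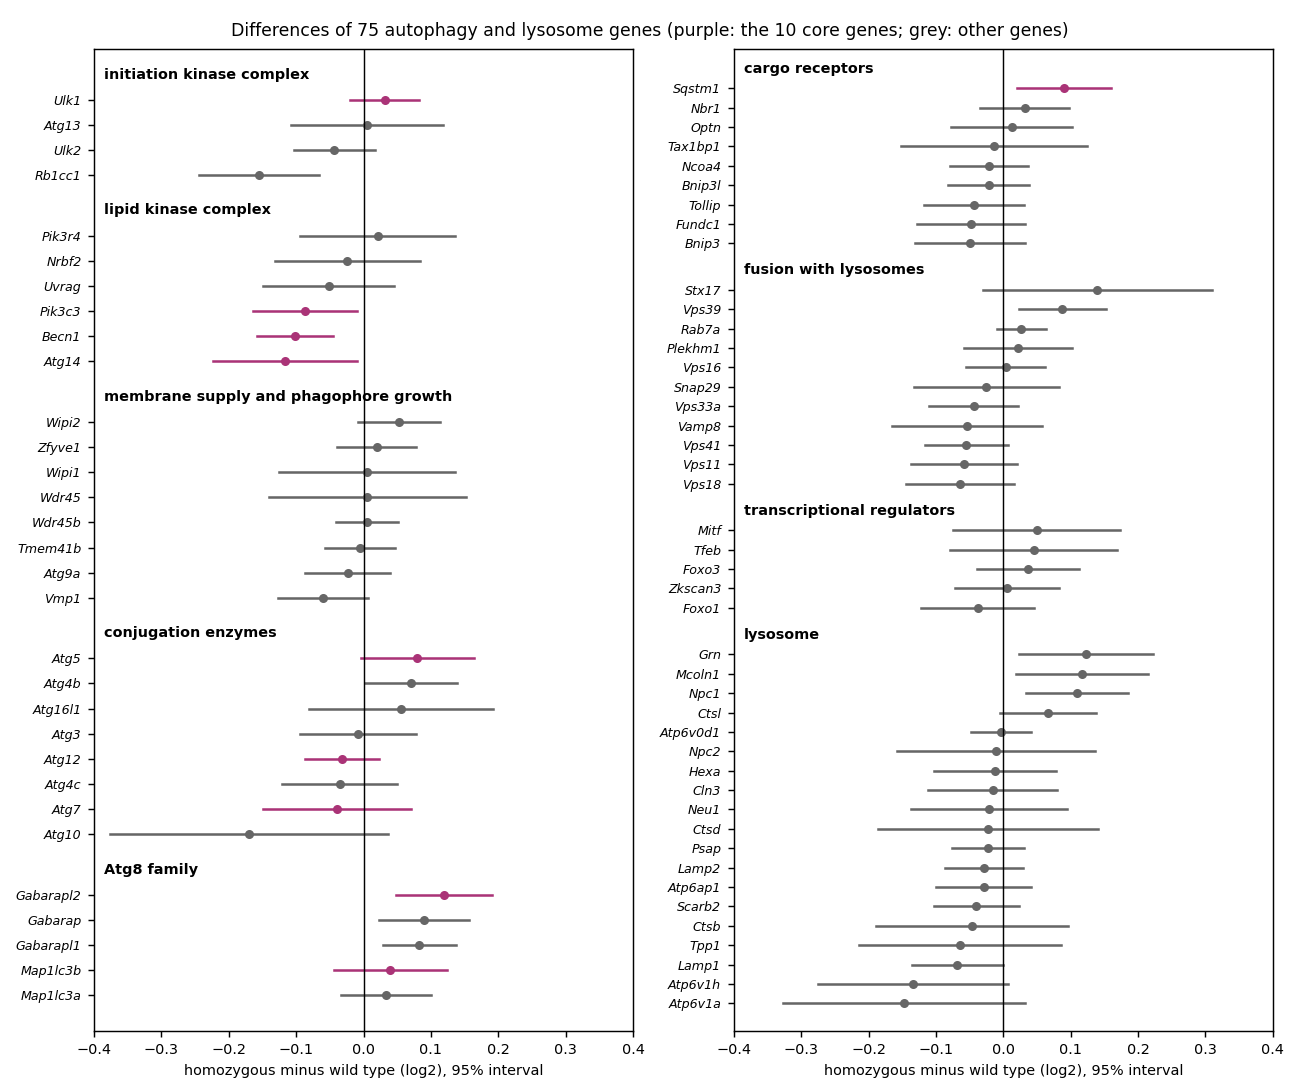
Difference between homozygous and wild-type embryos (log2, points) with its 95% confidence interval (lines) for the 75 measured genes of the pathway list, grouped by role, with the 10 core genes in purple and the others in grey. Becn1, Pik3c3 and Atg14 lie below 0 and all 5 Atg8 genes above 0, each by its brightest probe set. The second probe set of Map1lc3b lies below 0, as does Map1lc3a once arrays are centred on their medians. No gene passed an adjusted p of 0.05.

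The wider pathway was read from a list of 93 genes by role, of which 75 had a named probe set. None passed the adjusted threshold in limma, beside 0.469% of all named genes, and at an unadjusted p under 0.05 there were 9 higher and 5 lower, beside 9.18% and 5.93% of all named genes. The list's median difference was -0.01. The balance depended on how arrays were scaled. Centring them on their medians gave 19 lower genes against 1 higher and a median of -0.05, and quantile normalization gave 8 against 9. Calls over all probe sets also moved, from 66 higher and 58 lower to 35 and 267 with centring. After quantile normalization they were 43 and 77. The share of all genes at the looser threshold under these settings is not given here, so the list's counts are not set against it. Without wild type 1 and 2 the list had 14 higher and 8 lower genes with a median of 0.01. Its lower count ranged from 2 to 9 with 1 array left out. That count was 2 without wild type 2 or homozygous 3, 3 without homozygous 2, 4 or 5, and 9 without wild type 3. Without its 10 core genes the list held 65 measured genes, 7 higher and 2 lower at the looser threshold. With arrays centred on their medians 2 genes passed, Becn1 and Rb1cc1, and without wild type 1 and 2 there were 4, Becn1, Gabarap, Gabarapl2 and Vps39.

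Among 8 genes of membrane supply and phagophore growth none reached the looser threshold, with Vmp1, a lipid scramblase of the endoplasmic reticulum, at -0.06 ± 0.0314 by its brighter probe set and 0.04 ± 0.0599 by a dim second one, and Wipi2, which binds the lipid made by Pik3c3, at 0.05 ± 0.0284. Of 11 genes for fusion with lysosomes 1 was higher and none lower, or 0 and 4 with centred arrays. The higher one was Vps39 of the HOPS tethering complex, at 0.09 ± 0.0300 (adjusted p = 0.203). Vps41, its partner in that complex, stood at -0.05 ± 0.0287. The 5 measured transcriptional regulators gave none, and Tfeb, the best known activator of autophagy and lysosome genes, differed by 0.05 ± 0.0577 at a dim signal. Foxo3 stood at 0.04 ± 0.0354, or at 0.00 with arrays centred on their medians, and Foxo1 at -0.04 ± 0.0392. Of 19 lysosomal genes 3 were higher and 1 lower at the looser threshold. Npc1, the cholesterol exporter of lysosomes, differed by 0.11 ± 0.0354 (adjusted p = 0.183) and Grn for progranulin by 0.12 ± 0.0464 (adjusted p = 0.245), while 15 of the 19 lay below 0. That count rested on wild type 1 and 2, since 7 of the 19 lay below 0 without both, 10 without wild type 1 and 11 without wild type 2. With arrays centred on their medians there were 0 higher and 5 lower at the looser threshold. The third of the higher genes was the channel gene Mcoln1, at 0.12 ± 0.0456, and the lower one the membrane protein gene Lamp1, at -0.07 ± 0.0313, both named after their values were seen. For the fusion and lysosome counts with centred arrays the share of all genes at the looser threshold is not given here.

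The 10 genes varied unequally between embryos of one genotype. The SD was larger in wild type for 8 of them, all but Pik3c3 and Ulk1, and for 63.7% of all named genes or 74.6% of those as bright. In wild type, embryos 1 and 2 had the highest values for Atg5, Atg7, Atg14, Map1lc3b and Gabarapl2 and the lowest for Becn1. They were the highest pair for 34.7% of genes as bright and the lowest pair for 19.1%. Their removal moved the differences of Ulk1, Atg5, Atg7, Atg14 and Map1lc3b by more than 1.5 times.

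Deviations from the group means were then compared between the genes over the 12 embryos. Of 45 pairs none passed Benjamini-Hochberg adjustment, the lowest adjusted permutation p being 0.190 for Pearson's r and 0.344 for Spearman's rho, with 6 and 5 pairs at an unadjusted p under 0.05. Becn1 and Atg14, subunits of one complex, had r = -0.73 (permutation p = 0.0145) and rho = -0.70 (p = 0.0229), and r = -0.71 without the 2 embryos farthest from the median of Becn1. The value depended on the scaling, with r = -0.26 (permutation p = 0.336) for arrays centred on their medians and r = -0.61 (permutation p = 0.106) after quantile normalization. Map1lc3b and Gabarapl2 had r = 0.73 (permutation p = 0.0152) and rho = 0.61 (p = 0.0582), and r = 0.56 without wild type 1 and 2. With centred arrays its r was 0.75 and after quantile normalization 0.70. Sqstm1 and Gabarapl2 had r = 0.66 (permutation p = 0.0250) and rho = 0.41 (p = 0.207), and r = 0.67 without 2 embryos, but 0.42 after quantile normalization. All values of an embryo come from 1 array, whose overall brightness they share. The median r over the 45 pairs was 0.10, and 0.31 with arrays centred on their medians. The genes whose deviations were most like those of Becn1, the highest of all other named genes over 12 embryos, were Psmd7 of the proteasome lid (r = 0.91), Tnfrsf9 (0.91), Abtb1 (0.90), Ctnnd1 for p120 catenin (0.90) and Sugp2 (0.89). Their genotype differences lay between 0.04 and 0.25, on the other side of 0 from that of Becn1, and none passed the adjusted threshold. These genes are the top of a ranking of all named genes, made on the values as deposited only. The ranking was not tested and is a description.

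**Figure D3:**
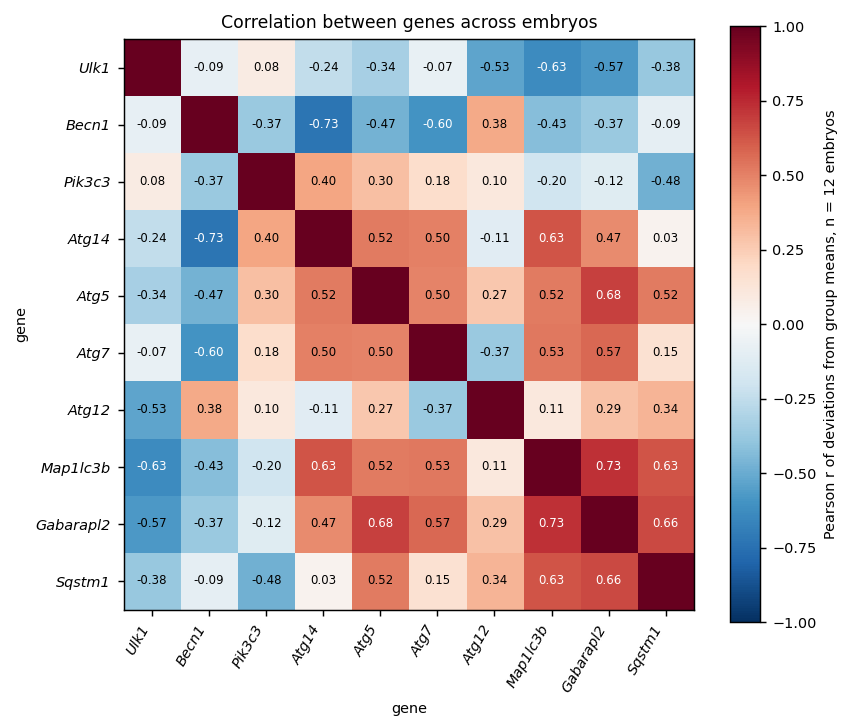
Pearson r between the 10 genes over 12 embryos, computed on deviations from the mean of each genotype, with the colour scale from -1 in blue to 1 in red and the value printed in each cell. The lowest value, -0.73, joins Becn1 and Atg14, and the highest, 0.73, joins Map1lc3b and Gabarapl2; with arrays centred on their medians the lowest pair is instead Ulk1 and Map1lc3b (-0.38), and after quantile normalization Pik3c3 and Sqstm1 (-0.75).

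Markers of other cells differed between the groups beside these genes. The mean of 5 measured pallial markers ranged from 9.08 to 9.58 among wild-type embryos (homozygous: 8.996 to 9.15), and 4 of the 5 were lower at an unadjusted p under 0.05. All 7 choroid plexus and roof plate markers were above 0 (Folr1 at -0.0022 after quantile normalization), 3 of them at an unadjusted p under 0.05, with means from 6.503 to 6.65 and from 6.57 to 6.81. The mean of 7 neuronal markers lay from 11.72 to 11.79 and from 11.61 to 11.75. Among them Nefl fell, by 0.42 ± 0.0653 (SE; adjusted p = 0.0273 in limma), Nefm differed by -0.21 and Map2 by 0.09 (adjusted p = 0.0552 and 0.131), and Tubb3, Dcx, Stmn2 and Snap25 by -0.04 to -0.01. Over all marker lists the groups did not overlap for Nefl, Nefm and the microglial P2ry12, which were lower, and for the subpallial Nkx2-1 and the endothelial Cdh5, which were higher, beside 0.698% and 1.16% of all probe sets. Microglial means lay from 7.56 to 7.74 and from 7.50 to 7.68, endothelial means from 8.55 to 8.71 and from 8.60 to 8.67, erythroid means from 9.07 to 9.76 and from 8.97 to 9.46, mesenchymal means from 6.73 to 6.87 and from 6.78 to 6.90, and radial glial means from 11.33 to 11.47 and from 11.28 to 11.40. Subpallial means lay from 11.06 to 11.21 and from 11.07 to 11.23. List means can hide single markers. At an unadjusted p under 0.05, 1 of 7 radial glial markers was higher (Hes5, 0.15) and 2 lower (Fabp7, -0.41, and Slc1a3, -0.16). Of 4 erythroid markers 1 was lower (Hbb, -0.49), of 10 microglial 1 was lower, and of 8 endothelial 2 were higher. Of 9 subpallial markers 1 was higher (Nkx2-1, 0.16) and 1 lower (Dlx5, -0.18) at that threshold, and 5 of the 9 lay above 0 and 4 below. These counts stand beside 9.18% higher and 5.93% lower of all named genes, and none of these markers passed the adjusted threshold. Array medians also went along with genotype, as given above. The part of these in the differences of the autophagy genes was not tested.

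**Figure D4:**
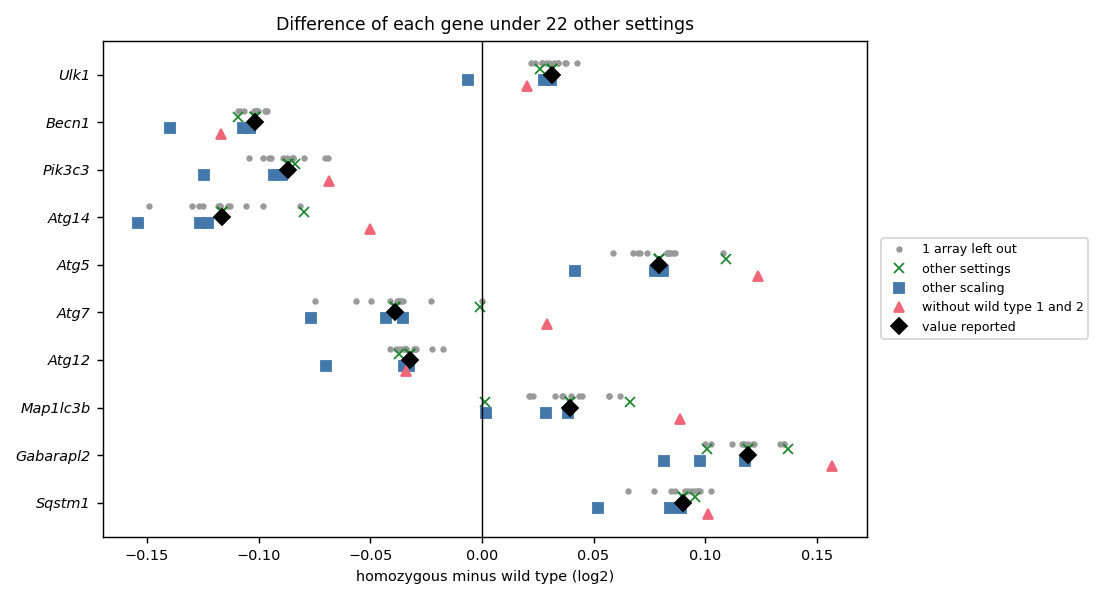
Difference between homozygous and wild-type embryos (log2) for each of the 10 genes as reported (black diamonds) and under 22 other settings: 1 array left out (grey points), other scaling (blue squares), without wild type 1 and 2 (red triangles) and other settings (green crosses). Becn1, Pik3c3 and Atg14 stay below 0 and Gabarapl2, Sqstm1 and Atg5 above 0 throughout, while Ulk1 and Atg7 cross 0 in 1 setting each.

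Promoter sequence of 9 of the 10 genes came from RefSeq's promoter table (assembly GRCr8), which does not list Becn1. The 250 bases before the start were searched on both strands. For each of the 9 genes only the first listed start was used, while the shares of all promoters cover all 33469 entries. The palindromic E-box CACGTG, the core of the site that Tfeb binds, was found before Atg5 alone, and in 5.59% of all 33469 promoters. The FoxO motif GTAAACA and the antioxidant response motif TGACNNNGC, searched since FoxO factors and Nrf2 are known to act on autophagy genes, were found in none of the 9, and in 3.21% and 10.1% of all promoters. The GC box GGGCGG was found in 6, Pik3c3, Atg5, Atg7, Atg14, Sqstm1 and Gabarapl2, and in 30.5% of all promoters; GC content was 60% at the median of the 9 and 51.2% over all promoters. A match is a run of letters, not a bound site. The stretches of the lipid kinase subunits, of the highest tag and of the cargo receptor are shown with that of Atg5, since these subunits, tag and receptor gave the values described most fully and Atg5 alone holds the E-box. They read 5′ to 3′ toward the gene, with GC boxes and the E-box in capitals. In Atg5 the E-box and a GC box share a base and form 1 run of capitals.
Pik3c3, chr18:22119607-22119856, plus strand: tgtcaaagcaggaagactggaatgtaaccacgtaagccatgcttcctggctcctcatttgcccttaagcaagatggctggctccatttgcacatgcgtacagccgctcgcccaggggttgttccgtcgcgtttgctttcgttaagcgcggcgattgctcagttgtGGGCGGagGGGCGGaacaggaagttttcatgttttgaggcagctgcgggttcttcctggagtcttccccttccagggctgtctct
Atg14, chr15:23306816-23307065, minus strand: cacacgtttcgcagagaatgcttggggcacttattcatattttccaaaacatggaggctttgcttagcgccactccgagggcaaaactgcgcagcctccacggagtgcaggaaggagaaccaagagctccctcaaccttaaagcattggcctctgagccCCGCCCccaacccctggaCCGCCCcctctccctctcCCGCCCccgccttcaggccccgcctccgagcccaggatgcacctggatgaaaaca
Gabarapl2, chr19:56819576-56819825, plus strand: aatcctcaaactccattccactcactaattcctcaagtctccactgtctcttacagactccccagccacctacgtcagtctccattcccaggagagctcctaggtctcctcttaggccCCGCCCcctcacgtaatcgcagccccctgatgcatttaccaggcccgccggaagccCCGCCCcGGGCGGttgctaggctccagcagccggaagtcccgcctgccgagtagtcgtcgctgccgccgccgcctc
Sqstm1, chr10:35037751-35038000, minus strand: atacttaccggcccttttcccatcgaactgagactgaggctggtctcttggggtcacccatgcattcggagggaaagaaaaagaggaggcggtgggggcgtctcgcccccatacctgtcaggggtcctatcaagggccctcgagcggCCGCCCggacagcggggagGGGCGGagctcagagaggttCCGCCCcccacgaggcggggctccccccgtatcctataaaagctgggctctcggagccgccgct
Atg5, chr20:49380585-49380834, plus strand: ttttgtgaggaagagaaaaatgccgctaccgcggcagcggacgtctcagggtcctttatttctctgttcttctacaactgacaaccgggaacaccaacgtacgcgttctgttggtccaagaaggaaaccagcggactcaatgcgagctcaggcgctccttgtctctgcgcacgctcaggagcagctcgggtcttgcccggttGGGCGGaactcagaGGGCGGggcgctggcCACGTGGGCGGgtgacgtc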

How the data were processed

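Kits were RNeasy Mini for extraction and Ambion WT Expression for biotinylated cRNA, per the labels' protocols. What the authors deposited is a table of log2 intensity, with each value from 1 probe set on 1 embryo's array; the log scale was inferred from the range of the values. Partek 6.4 and RMA are the tools listed, per the submitters' processing notes; their settings, and the build behind the probes, were not given in the sources used here. Normalization of this kind can level out a shift common to most genes, and short probes shrink differences.

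Genotype groups follow the labels. Genotypes were compared with lmFit and trended eBayes of limma (version 3.58.1, run under R 4.3.3) for all 29214 probe sets, 2-sided and with no other factor, and p-values were adjusted by Benjamini-Hochberg with calls at 0.05. The labels say the arrays are separate embryos, but litter mates among them are not known. The median SE was 0.0576 over all probe sets and 0.0348 over the 10 genes. The fit was checked on simulated data. Correlations were permuted 100000 times within genotype. Precision is limited by the number of arrays.

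The members, the pathway list (written from general knowledge), the marker lists and the settings were chosen with earlier results of these data known. Named were all 10 genes, Htt, at most 2 other genes per role with the smallest p, and 5 genes most like Becn1. Tfeb, Map1lc3a, Pik3r4, Mcoln1, Lamp1 and the markers with values were named after their values were seen. The platform annotation left 13581 probe sets without a symbol and gave 323 several. Cyclic loess and leaving out wild type 1 and 2 together were chosen after seeing the data. Alternatives were other scalings, variance models, a brightness filter, a replicate block and each array left out. Plots used Python 3.11.15 and matplotlib 3.10.9.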

Additional observations from a re-analysis of the deposited data

Results flagged for a closer look

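Among 58 groups of 6 values, for the named autophagy genes and Htt in each genotype, 4 held an embryo far from the others by Dixon's ratio, and chance alone gives about 1 in 20. Sqstm1 in wild type 6 was 10.72, where the other wild-type embryos began at 10.85. Atg7 in homozygous 1 was 9.55, where the next highest was 9.49. Vmp1 in wild type 2 was 10.41, where the next was 10.32. Grn in homozygous 1 was 10.06, where the next lowest was 10.21.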

How the results depend on the processing

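Leaving aside Map1lc3b, whose probe sets disagree in sign, the direction of the other 9 core genes held in 196 of 198 refits. The exceptions were Ulk1, at -0.0065 with arrays centred on their medians, and Atg7, at 0.0293 without wild type 1 and 2. Some refits change only the SE and p, so they could not change a direction. They are the replicate block, the fits without an intensity trend or moderation, and the brightness filter. Averaging probe sets also leaves a gene with 1 probe set as it was, and the fits with 1 array left out share most arrays. The count of core genes past the adjusted threshold, 0 as reported, was 1 with centred arrays or without variance moderation and 2 with array weights or without wild type 1 and 2; it was 0 in the other 18 settings, among them each array left out in turn. At an unadjusted p under 0.05 it ranged from 3 to 5 with 1 array left out and was 6 after quantile normalization or cyclic loess. For the pathway list it was 2 with centred arrays, 1 without moderation, 2 with array weights, 4 without wild type 1 and 2, and 0 to 1 with 1 array left out. The 124 probe sets called in all became 302 with centred arrays, 414 with array weights, 255 among probe sets above the median, 582 without wild type 1 and 2, 74 without moderation, 3 without an intensity trend and 4 to 200 with 1 array left out. The split of calls was 66 higher and 58 lower, and 35 and 267 with centred arrays, 43 and 77 after quantile normalization. Of the other named genes, Uvrag was at 0.0133 and Nrbf2 at 0.0463 without wild type 1 and 2, Nrbf2 at 0.0063 with array weights and from -0.0483 to 0.0069 with 1 array left out (above 0 without wild type 1 or 2), and Foxo3 at -0.0008 with centred arrays. The labels number both groups 1 to 6, and whether the numbers pair the embryos is not known. Deviations correlated above 0.1 in 2 of 6 same-numbered pairs (from -0.08 to 0.26). Those were numbers 1 and 3, for which the best match was their own number. Such correlations cannot show whether the numbers carry a pairing, and the main fit used none. With the replicate block 18 probe sets and no core gene passed. The cause of these changes was not tested. For Becn1 the difference of -0.102 exceeded the SD between embryos, 0.0252 in wild type and 0.0195 in homozygous embryos, without overlap of the groups. For each of the other 9 core genes the groups overlapped. Some of their differences lay within the spread between embryos, as for Atg7, at -0.039 with a wild-type SD of 0.130. Others exceeded it, as for Gabarapl2, at 0.119 with SDs of 0.0672 and 0.0534 (wild type and homozygous).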
